A study of Mus musculus with 15 samples.

Results

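The comparison set 5 cerebellum libraries of mPPL-001-transplanted YG8JR mice against 3 of untreated YG8JR mice. These are 8 of the 15 RNA-seq libraries of the study, chosen by their labels. YG8JR is a mouse model of Friedreich ataxia. For the mPPL-001 libraries, recipient YG8JR mice aged 2.5 to 3 months were given a lethal X-ray dose of 7 Gy. They then received Sca1+ marrow stem and progenitor cells of YG8JR donors, electroporated with Cas9 and the guides UP4 and DN4, and took sulphamethoxazole and trimethoprim in their water for 1 month. The 4 mock libraries came from YG8JR mice given the same irradiation, antibiotics and guide-electroporated cells without Cas9. Untreated YG8JR mice had none of these steps, and 3 further libraries came from wild-type (WT) mice. All labels give the time as 6 months after transplant, for untreated and WT mice too. Irradiation, antibiotics, donor cells and editing were all present in the mPPL-001 libraries and absent from the untreated ones, so in this comparison they cannot be told apart. Donor and recipient shared the genotype. The labels do not say that each library is a separate animal, so the p-values measure the spread between libraries, which may be technical in part.

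Blood-forming stem cells infused after irradiation rebuild the blood and the tissue macrophages that derive from it. Microglia, the resident macrophages of the brain, normally renew themselves within the tissue. After irradiation, cells that descend from the marrow can settle in the brain, where they express macrophage genes such as Ms4a7 and have low levels of microglial genes such as P2ry12, Sall1 and Tmem119. In Friedreich ataxia too little of a mitochondrial protein needed for iron-sulphur cluster assembly is made, and the cerebellum is among the affected tissues.

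Each library held 21571954 to 37719688 assigned read counts in the mPPL-001 group and 34814149 to 37972661 in the untreated group. The labelled batch differed within both groups. Replicates 2 and 5 of mPPL-001 and replicate 1 of untreated YG8JR were batch B, and the other 3 mPPL-001 and 2 untreated libraries were batch A. Marker genes of different parts of the hindbrain varied widely between the libraries. Gabra6, a GABA receptor subunit of cerebellar granule neurons, had 0.449, 365, 72.8, 0.575 and 210 CPM (read counts scaled to a common library size) in mPPL-001 replicates 1 to 5, against 223, 4.92 and 0.0592 CPM in untreated replicates 1 to 3. This defining granule neuron marker was thus near 0 in 2 mPPL-001 libraries and in 1 untreated library, all labelled cerebellum. Slc6a5, a glycine transporter gene listed for neurons of the brainstem and deep nuclei, had 616, 93.0, 43.7, 78.2 and 69.6 CPM in mPPL-001 replicates 1 to 5, against 80.7, 942 and 646 CPM in untreated replicates 1 to 3. Y-linked genes together had 225 to 249 CPM in the 5 mPPL-001 libraries, against 253, 210 and 0.0592 CPM in untreated replicates 1 to 3. Mock replicates 1 to 4 had 1.63, 224, 215 and 0.977 CPM, so mPPL-001 and mock libraries were not matched in this either.

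Of 24989 genes tested, 8 rose (0.032%) and 0 fell (0%) in mPPL-001 relative to untreated YG8JR, by edgeR's quasi-likelihood test with labelled batch as a term and a Benjamini-Hochberg adjusted p below 0.05. At an unadjusted p below 0.05 there were 472 higher genes (1.89%) and 453 lower genes (1.81%). DESeq2 called 16 higher and 6 lower genes, and limma's voom with sample weights called 13 higher and 21 lower. In 262 genes (1.05%) every mPPL-001 library lay above every untreated one, and in 257 (1.03%) every mPPL-001 library lay below. The median log2 fold change of all genes tested was 0.02. Every one of the 8 called genes belonged to a single family of predicted genes with repeated, satellite-like sequence.

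The satellite-like predicted genes resemble each other in sequence, some closely and some in part, and their transcripts are built of tandem copies. The mouse major satellite, an AT-rich tandem repeat that surrounds the centromeres, is normally packed in silent heterochromatin. In the GENCODE M21 transcripts (GRCm38), 13 listed genes shared 31-base words with each other, and Gm10718 resembled itself best at a shift of 234 bases, at which 62.6% of its bases recurred. Its transcript is 64.0% A or T. Stretches of 240 bases from the transcripts of 4 of the genes that rose show the likeness, with each copy of the word GCCATATT in capitals.
Gm10718: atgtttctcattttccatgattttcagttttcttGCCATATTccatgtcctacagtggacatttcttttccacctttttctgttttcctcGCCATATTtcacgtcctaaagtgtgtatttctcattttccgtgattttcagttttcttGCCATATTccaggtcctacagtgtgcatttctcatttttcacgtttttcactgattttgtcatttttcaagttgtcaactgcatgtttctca
Gm21738: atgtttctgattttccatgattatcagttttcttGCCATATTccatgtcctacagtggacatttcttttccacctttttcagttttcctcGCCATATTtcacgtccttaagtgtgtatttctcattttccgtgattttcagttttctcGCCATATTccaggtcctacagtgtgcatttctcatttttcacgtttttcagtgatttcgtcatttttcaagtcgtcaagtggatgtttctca
Gm10800: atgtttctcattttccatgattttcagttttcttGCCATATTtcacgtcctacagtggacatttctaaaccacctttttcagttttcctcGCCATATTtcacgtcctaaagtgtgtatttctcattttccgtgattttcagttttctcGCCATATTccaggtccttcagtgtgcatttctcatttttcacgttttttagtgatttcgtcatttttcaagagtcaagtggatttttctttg
Gm10801: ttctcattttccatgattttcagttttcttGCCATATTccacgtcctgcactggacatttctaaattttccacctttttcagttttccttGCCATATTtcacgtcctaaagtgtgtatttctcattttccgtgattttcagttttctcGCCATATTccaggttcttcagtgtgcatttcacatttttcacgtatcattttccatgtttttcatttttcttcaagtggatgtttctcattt
Laid base on base without gaps, the Gm21738 stretch had 95.8% of its bases as in Gm10718, the Gm10800 stretch 89.2% and the Gm10801 stretch 60.0%. Each of the 4 held the word in 3 copies, and the matching stretch of Gm10715, which also rose, held 2 and had 97.1% of its bases as in Gm10718. Gm10718 lies on chromosome 9, Gm21738 on chromosome 14, and Gm10800 and Gm10801 on chromosome 2. Reads from such copies can be assigned to any of them, so the values of single genes are uncertain and their sum is the safer measure.

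Gm10800 was the most abundant of the family. It had 1418, 329, 907, 894 and 320 CPM in mPPL-001 replicates 1 to 5, against 37.9, 52.2 and 73.2 CPM in untreated replicates 1 to 3. The lowest mPPL-001 library thus stood above the highest untreated one, and the 2 lower mPPL-001 values were both of batch B. The log2 fold change was 3.72 (SE 0.40, edgeR adjusted p = 0.000794). Gm10801 had 73.7, 25.5, 45.4, 50.0 and 25.9 CPM in mPPL-001 replicates 1 to 5, against 2.39, 3.30 and 4.09 CPM in untreated replicates 1 to 3. It had the smallest p of all genes tested, with a log2 fold change of 3.75 (SE 0.25, edgeR adjusted p = 7.48e-06). Gm21738 had 137, 32.4, 92.5, 96.1 and 39.0 CPM in mPPL-001 replicates 1 to 5, against 3.34, 4.14 and 5.72 CPM in untreated replicates 1 to 3, and Gm10718 had 50.2, 14.4, 49.0, 35.4 and 18.3 CPM against 1.73, 2.03 and 3.47 CPM. In both genes the 3 mPPL-001 libraries of batch A were above the 2 of batch B. Their log2 fold changes were 4.09 for Gm21738 (SE 0.33, edgeR adjusted p = 4.04e-05) and 3.75 for Gm10718 (SE 0.27, edgeR adjusted p = 1.39e-05).

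The other 4 genes that rose were less abundant. Gm10717 (3.95), Gm17535 (4.29), Gm10715 (4.68) and Gm11168 (3.92) are given here by log2 fold change, and the edgeR adjusted p ran from 6.09e-05 for Gm10717 to 0.0365 for Gm11168. Gm10715 reached no more than 3.84 CPM in any mPPL-001 library and no more than 0.0895 CPM in an untreated one. Without untreated replicate 3 the edgeR adjusted p was 0.423 for Gm10715 and 0.483 for Gm11168, and without untreated replicate 2 it was 0.372 for both. Gm11168 also lost its call without mPPL-001 replicate 1, 3 or 4 (0.0623 to 0.100), and Gm10715 without mPPL-001 replicate 2, 3 or 5 (0.0518 to 0.0742). Gm10719 and Gm10722 both had a log2 fold change of 3.39 and an edgeR adjusted p of 0.0578, and Gm10720 (3.79) and Gm10721 (2.92) did not pass either. Genes of this family can share reads, and the list was chosen with earlier results known, so its members are not separate observations. Of 13 measured genes of the list, the groups did not overlap in 12, all higher in mPPL-001, against 1.05% of all genes. The exception was Gm10714 (-0.46), which shares 0% of its 31-base words with the others and was recognised as unlike them after its values were seen.

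Summed over the 12 related genes, satellite-like transcripts made 979 ± 566 CPM in mPPL-001 (SD, n = 5) and 966 ± 162 CPM in mock libraries (SD, n = 4), against 68.0 ± 21.0 CPM in untreated YG8JR (SD, n = 3). The mPPL-001 mean was 14.4 times the untreated mean, and the mock mean was 14.2 times the untreated mean. Within batch A the mPPL-001 mean was 17.4 times the untreated mean, and within batch B it was 8.65 times, against a single untreated library. WT replicates 1 and 2 held 11.8 and 15.4 CPM, and the library labelled WT replicate 3 held 69.2 CPM, within the range of the untreated libraries. The RNA was ribodepleted and the library kit selects polyadenylated RNA, per the labels, and how satellite-derived reads were placed on the genome is not given in the sources used here. In bulk tissue, a change in the number of cells that make an RNA and a change in the RNA made per cell cannot be told apart, and this holds for every gene here.

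**Figure D1:**
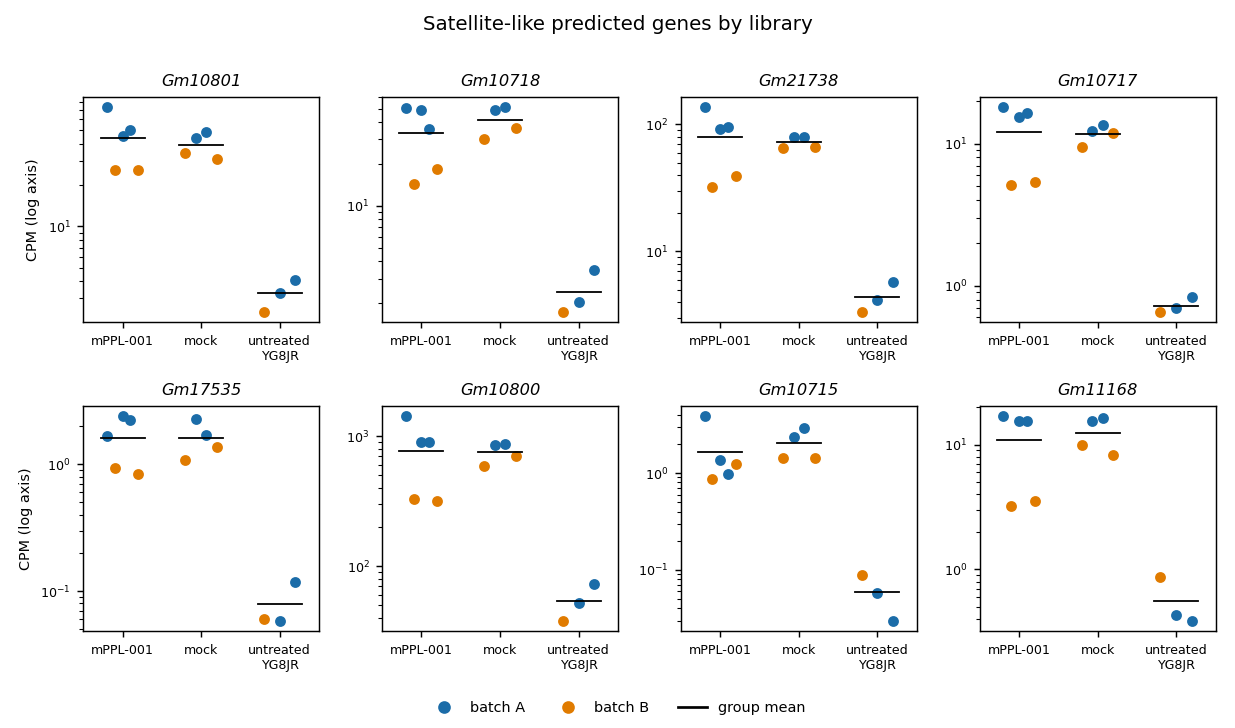
CPM on a log axis for the 8 satellite-like genes that rose, with a point for each mPPL-001, mock and untreated YG8JR library coloured by labelled batch, and a line at each group mean. In all 8 panels every mPPL-001 library stands above every untreated library, and the mock libraries lie in the range of mPPL-001 or close to it.

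No gene passed the test between mPPL-001 and mock libraries (0 of 24989, 0%, edgeR quasi-likelihood adjusted p below 0.05), and DESeq2 and voom also called 0. At an unadjusted p below 0.05 there were 484 genes (1.94%). Mock against untreated YG8JR gave 9 higher genes (0.036%). That comparison and mPPL-001 against untreated YG8JR share the 3 untreated libraries, so their values are set side by side only. Gm10801 had a log2 fold change of 3.75 in mPPL-001 over untreated, 3.77 in mock over untreated and -0.02 (SE 0.19) in mPPL-001 over mock. Gm10718 had 3.75, 4.31 and -0.55 (SE 0.21) in the same comparisons.

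Macrophage genes of the kind carried by marrow-derived and border cells stood higher in mPPL-001 libraries than in untreated ones, but no single gene passed edgeR's test across all genes. Of 26 listed genes 23 were measured, and 17 of these had a positive log2 fold change, with a median of 0.76 (0.82 within batch A and 0.67 within batch B). At an unadjusted p below 0.05, 10 of the 23 (43.5%) were higher, against 1.89% of all genes, and in 8 the groups did not overlap, against 1.05% of all genes. None was lower at that level. The list was chosen with earlier results of these data known and its genes can share a cell type, so they are not separate observations. The mean log2 CPM of the list ran from 0.94 to 1.77 in mPPL-001 libraries and from 0.40 to 1.02 in untreated ones, and untreated replicate 1 lay above mPPL-001 replicate 4. The list's median was 0.06 in mPPL-001 over mock and 0.81 in mock over untreated.

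Ms4a7, a membrane protein of macrophages that is nearly silent in microglia, led this list. It had 2.17, 1.87, 1.06, 2.10 and 2.71 CPM in mPPL-001 replicates 1 to 5 and 2.05, 1.04, 1.11 and 1.45 CPM in mock replicates 1 to 4, against 0.328, 0.521 and 0.444 CPM in untreated replicates 1 to 3. The lowest mPPL-001 library had more than the highest untreated one. The log2 fold change was 2.14 (SE 0.38, edgeR adjusted p = 0.119), with 1.90 within batch A and 2.79 within batch B. DESeq2 and voom both called it, at adjusted p values of 7.21e-05 and 0.039.

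Cybb encodes the catalytic subunit of the phagocyte NADPH oxidase. It had 5.55, 9.92, 4.36, 4.91 and 9.57 CPM in mPPL-001 replicates 1 to 5, against 2.72, 2.90 and 2.22 CPM in untreated replicates 1 to 3, a log2 fold change of 1.26 (SE 0.25, edgeR adjusted p = 0.266). The 2 highest values were those of the batch B libraries. Of the 6 measured oxidase subunit genes 5 had a negative log2 fold change, and their median was -0.24. Siglec1, a sialic acid receptor of tissue macrophages, had 5.23, 3.10, 2.62, 2.47 and 4.39 CPM in mPPL-001 replicates 1 to 5, against 1.58, 1.33 and 1.36 CPM in untreated replicates 1 to 3. Its log2 fold change was 1.30 (SE 0.29, edgeR adjusted p = 0.578), and the groups did not overlap.

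Lyz2, the lysozyme gene of myeloid cells, had 42.6, 61.1, 32.5, 26.8 and 68.9 CPM in mPPL-001 replicates 1 to 5, against 17.7, 18.1 and 14.3 CPM in untreated replicates 1 to 3. That is a log2 fold change of 1.35 (SE 0.36, edgeR adjusted p = 0.94). Mrc1, the mannose receptor of border macrophages, had 9.03, 12.5, 11.7, 10.4 and 15.4 CPM in mPPL-001 replicates 1 to 5, against 8.27, 5.79 and 5.09 CPM in untreated replicates 1 to 3. The log2 fold change was 0.87 (SE 0.26, edgeR adjusted p = 0.94), and the groups again did not overlap, though mPPL-001 replicate 1 lay close to untreated replicate 1. Clec12a (2.02), Ms4a4a (1.79), Ms4a6c (1.71), Ms4a6b (1.21) and Stab1 (0.69) also had an unadjusted p below 0.05, and their values here are log2 fold changes. Tlr8, an endosomal sensor of single-stranded RNA, had 0.858, 1.90, 1.50, 0.271 and 1.16 CPM in mPPL-001 replicates 1 to 5, against 0.209, 0.261 and 0.296 CPM in untreated replicates 1 to 3, and the groups overlapped in mPPL-001 replicate 4.

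Not every border macrophage gene stood higher. The scavenger receptor gene Cd163 had 3.31, 2.66, 3.42, 2.74 and 2.03 CPM in mPPL-001 replicates 1 to 5, against 3.79, 3.27 and 6.13 CPM in untreated replicates 1 to 3, a log2 fold change of -0.60. The log2 fold changes were 0.23 for Lyve1, 0.33 for F13a1 and -0.30 for the chemokine gene Pf4 (0.25 without untreated replicate 1), all markers of perivascular and meningeal macrophages. Ccr2, the chemokine receptor of circulating monocytes, had a log2 fold change of -0.57 (0.24 without untreated replicate 1), with 0.858, 0.556, 0.737, 0.203 and 0.757 CPM in mPPL-001 replicates 1 to 5, against 1.88, 0.376 and 0.681 CPM in untreated replicates 1 to 3. The monocyte genes Ly6c2 and Plac8 were among the 3 listed genes left out for low counts, with 33 reads each over the 8 libraries.

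Genes of resident microglia were mostly at lower levels in mPPL-001 libraries than in untreated ones, and none of them passed the edgeR test. All 25 listed genes were measured, and 23 had a negative log2 fold change, with a median of -0.42 (-0.51 within batch A and -0.45 within batch B). At an unadjusted p below 0.05, 10 of 25 (40%) were lower, against 1.81% of all genes, and in 6 the groups did not overlap in that direction, against 1.03% of all genes. This list too was chosen with earlier results known, and its genes are not separate observations. The mean log2 CPM of the list ran from 3.46 to 4.10 in mPPL-001 libraries and from 4.04 to 4.51 in untreated ones. The list's median was -0.19 in mPPL-001 over mock and -0.37 in mock over untreated.

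Cx3cr1, the fractalkine receptor of microglia, had 28.2, 18.9, 27.8, 29.6 and 20.9 CPM in mPPL-001 replicates 1 to 5 and 16.4, 37.7, 34.5 and 23.9 CPM in mock replicates 1 to 4, against 27.6, 54.6 and 47.1 CPM in untreated replicates 1 to 3. Untreated replicate 1, of batch B, lay within the mPPL-001 range, but the mPPL-001 libraries of batch B were lower than those of batch A as well. The log2 fold change was -0.70 (SE 0.14, edgeR adjusted p = 0.281), with -0.80 within batch A and -0.46 within batch B. DESeq2 and voom both called it lower, at adjusted p values of 0.0171 and 0.0404. P2ry12, the ADP receptor with which microglia sense injury, had 9.92, 7.93, 14.4, 11.0 and 11.1 CPM in mPPL-001 replicates 1 to 5, against 14.7, 21.5 and 21.4 CPM in untreated replicates 1 to 3. The highest mPPL-001 library lay just under the lowest untreated one, and the log2 fold change was -0.78 (SE 0.19, edgeR adjusted p = 0.94).

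Siglech, a microglial lectin, had 4.98, 2.11, 7.75, 4.60 and 3.15 CPM in mPPL-001 replicates 1 to 5, against 6.42, 12.1 and 10.4 CPM in untreated replicates 1 to 3, and only mPPL-001 replicate 3 overlapped with the untreated range. Its log2 fold change of -1.08 (SE 0.28) was the lowest of the list. Csf1r, the receptor on whose signal microglia depend for survival, had 40.6, 35.4, 67.8, 42.3 and 46.7 CPM in mPPL-001 replicates 1 to 5, against 71.1, 102 and 98.2 CPM in untreated replicates 1 to 3. The groups did not overlap, and the log2 fold change was -0.90 (SE 0.26, edgeR adjusted p = 0.94). Gpr34 (-0.84), Selplg (-0.86), Tmem119 (-0.71) and the transcription factor gene Sall1 (-0.61), given as log2 fold changes, were also lower at an unadjusted p below 0.05. Fcrls had a positive log2 fold change of 0.38 (SE 0.38) and was the 1 listed gene whose groups did not overlap in the higher direction. It had 13.9 to 20.3 CPM in mPPL-001 libraries, against 12.1, 13.8 and 11.6 CPM in untreated replicates 1 to 3. Its value in mPPL-001 replicate 4 lay just above that in untreated replicate 2. The complement gene C1qa (-0.31) and the lipid receptor gene Trem2 (-0.39), which macrophages share, had smaller log2 fold changes and overlapping groups.

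**Figure D2:**
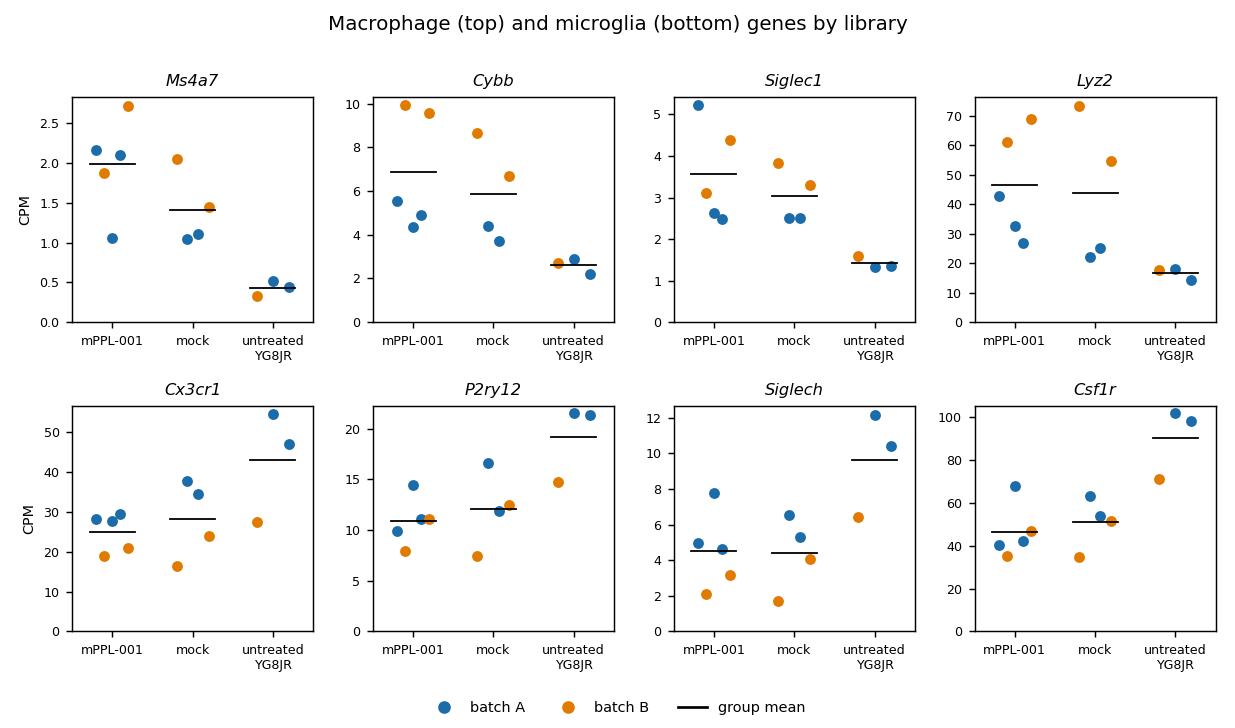
CPM on a linear axis for 4 macrophage genes (top) and 4 microglial genes (bottom), with a point for each mPPL-001, mock and untreated YG8JR library coloured by labelled batch, and a line at each group mean. The mPPL-001 means lie above the untreated means in the top row and below them in the bottom row, and the mock libraries spread over the mPPL-001 range. None of the 8 genes passed edgeR's test, and DESeq2 and voom each called some of them.

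The ETS-family factor PU.1 is known to bind promoters of many myeloid genes, and its core site can be read as GGAAGT. Which of the listed genes it binds was not tested. RefSeq promoters of 300 bases (250 before and 50 after each start, GRCm38.p6) were searched for these letters on both strands, since the lists of Ms4a7 and P2ry12 had medians of opposite sign. The Ms4a7 promoter at chr19:11336097-11336396 and the P2ry12 promoter at chr3:59262936-59263235, both on the minus strand, are shown with the word, or its reverse complement, in capitals.
Ms4a7: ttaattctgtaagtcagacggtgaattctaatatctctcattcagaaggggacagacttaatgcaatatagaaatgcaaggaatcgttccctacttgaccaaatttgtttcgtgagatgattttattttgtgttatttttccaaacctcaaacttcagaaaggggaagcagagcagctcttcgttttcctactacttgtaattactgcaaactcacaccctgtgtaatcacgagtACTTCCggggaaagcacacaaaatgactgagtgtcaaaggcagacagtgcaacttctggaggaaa
P2ry12: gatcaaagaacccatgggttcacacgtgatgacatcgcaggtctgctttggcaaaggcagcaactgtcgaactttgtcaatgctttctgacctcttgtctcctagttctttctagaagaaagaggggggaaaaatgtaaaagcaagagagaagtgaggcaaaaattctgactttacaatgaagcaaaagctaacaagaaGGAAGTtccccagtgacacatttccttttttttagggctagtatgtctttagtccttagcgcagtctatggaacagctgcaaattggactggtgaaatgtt
Each of these promoters held 1 copy, and a further Ms4a7 start held 0. The word was in 42.9% of 28 promoters of the macrophage list and in 40.9% of 22 promoters of the microglia list, against 23.8% of all 32851 promoters. Both lists held it at a like rate, and a match of letters does not show that a factor was bound.

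Genes that microglia switch on around damage, the disease-associated set, had a median log2 fold change of -0.17, with 19 of 24 negative. Gpnmb had 12.3, 14.8, 9.37, 5.31 and 15.4 CPM in mPPL-001 replicates 1 to 5, against 9.97 and 15.3 CPM in untreated replicates 1 and 2 with replicate 3 between them, so the groups overlapped, and its sign was positive within batch B (0.61). Lpl had a log2 fold change of -0.90, Clec7a -0.56, Apoe 0.11 and the lysosomal gene Cd68 0.00. None of these passed.

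Whether the genes that set untreated YG8JR apart from WT also differed after mPPL-001 was compared next. In the same fit 43 genes (0.172%) passed in untreated YG8JR against WT, 39 higher and 4 lower, and 0 of these passed in mPPL-001 against untreated YG8JR, where 8 of all genes tested did (0.032%). At an unadjusted edgeR p below 0.05, 12 of the 43 differed in mPPL-001 against untreated YG8JR, against 3.7% of all genes. Both comparisons use the untreated libraries, so genes chosen in 1 of them can differ in the other for that reason alone. For the same reason no count of shared signs is given. The library labelled WT replicate 3 was the one WT library of batch A. Without it, 4095 of 25964 genes (15.8%) passed in untreated YG8JR against WT, all 43 among them. In that fit 8 of all 25964 genes passed in mPPL-001 against untreated YG8JR. Of these, 2 were among the 4095, the satellite-like Gm10800 and Gm21738. Of the 4095, 4065 were also tested with all libraries, and in 3081 of these (75.8%) the library labelled WT replicate 3 lay nearer the untreated mean than the mean of WT replicates 1 and 2. These genes were called against WT replicates 1 and 2 alone. A library left out of that fit can lie nearer the untreated mean through that choice, so no conclusion is drawn from the share. The library labelled WT replicate 3 also differed from WT replicates 1 and 2 in a score of cerebellar over brainstem genes, on a log2 scale. The score was 0.99 in it and 8.56 and 10.2 in WT replicates 1 and 2, against 8.22, 0.44 and -1.04 in untreated replicates 1 to 3. It had 0.926 CPM of Cybb, 2.20 of C3ar1 and 1.30 of Nupr1, below the lowest untreated values of 2.22, 5.82 and 5.46 CPM. These genes passed in untreated over WT with that library in the fit, so they were partly chosen by its values. Its batch and its tissue make-up cannot be told apart here, and neither they nor a wrong label was tested. The values of untreated over WT with all libraries in the fit carry that doubt. Clec7a, a fungal glucan receptor of activated microglia, had 3.02, 2.87, 3.15, 1.12 and 4.27 CPM in mPPL-001 replicates 1 to 5 and 4.65, 4.40 and 3.44 CPM in untreated replicates 1 to 3, against 0.445, 0.201 and 0.397 CPM in WT replicates 1 to 3. Every mPPL-001 library thus lay above every WT library, and 4 of the 5 lay below the lowest untreated one. The log2 fold change was -0.56 (SE 0.36) in mPPL-001 over untreated and 3.61 in untreated over WT.

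The complement gene C4b had 180, 199, 231, 142 and 182 CPM in mPPL-001 replicates 1 to 5 and 193, 180 and 242 CPM in untreated replicates 1 to 3, against 33.5, 12.4 and 69.9 CPM in WT replicates 1 to 3. Its log2 fold change was -0.10 (SE 0.36) in mPPL-001 over untreated and 2.38 in untreated over WT. Cd68 had 6.25, 7.46, 9.34, 5.72 and 9.25 CPM in mPPL-001 replicates 1 to 5 and 8.71, 8.40 and 5.57 CPM in untreated replicates 1 to 3, against 2.57, 1.81 and 2.65 CPM in WT replicates 1 to 3. For both genes the mPPL-001 libraries spread over the untreated range and above the WT range. The class I gene H2-K1 had log2 fold changes of 0.07 and 1.25 in these comparisons, the anaphylatoxin receptor gene C3ar1 -0.37 and 1.80, Gpnmb -0.28 and 2.61, Cx3cr1 -0.70 and 1.34, and Pgm5 -0.79 and 1.78, each pair given as mPPL-001 over untreated and then untreated over WT. Cybb had 1.26 and 1.65 in the same order. For C4b and H2-K1 the edgeR adjusted p of untreated over WT was 0.0442 and 0.0324.

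Antigen presentation, interferon and cytokine genes gave no call. The 15 class I presentation genes had a median log2 fold change of 0.05 and the 9 measured class II genes 0.06. Cd74, the class II invariant chain, had 7.56, 5.24, 7.43, 8.16 and 15.8 CPM in mPPL-001 replicates 1 to 5 and 14.5, 10.6, 13.1 and 31.4 CPM in mock replicates 1 to 4, against 6.27, 4.55 and 4.62 CPM in untreated replicates 1 to 3. Only mPPL-001 replicate 5 reached the mock range. Its log2 fold change was 0.76 (SE 0.44) over untreated and -0.93 (SE 0.39, edgeR adjusted p = 1) over mock, and H2-Aa, a class II chain, had 0.63 and -1.06. The 35 type I interferon response genes had a median of 0.05, with 0.41 within batch A and -0.42 within batch B, and Ifi207 (1.42) was the only one with an unadjusted p below 0.05. The interferon-gamma inducible GTPase gene Iigp1 had a log2 fold change of 0.43. The 25 cytokine and NF-kappaB genes had a median of -0.07, with Ccl2 at -1.16, Casp1 at -0.70 and Ccl5 at 1.00. The T cell receptor gene Trac had a log2 fold change of -0.48, and 14 of 25 lymphocyte genes had too few reads to test.

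**Figure D3:**
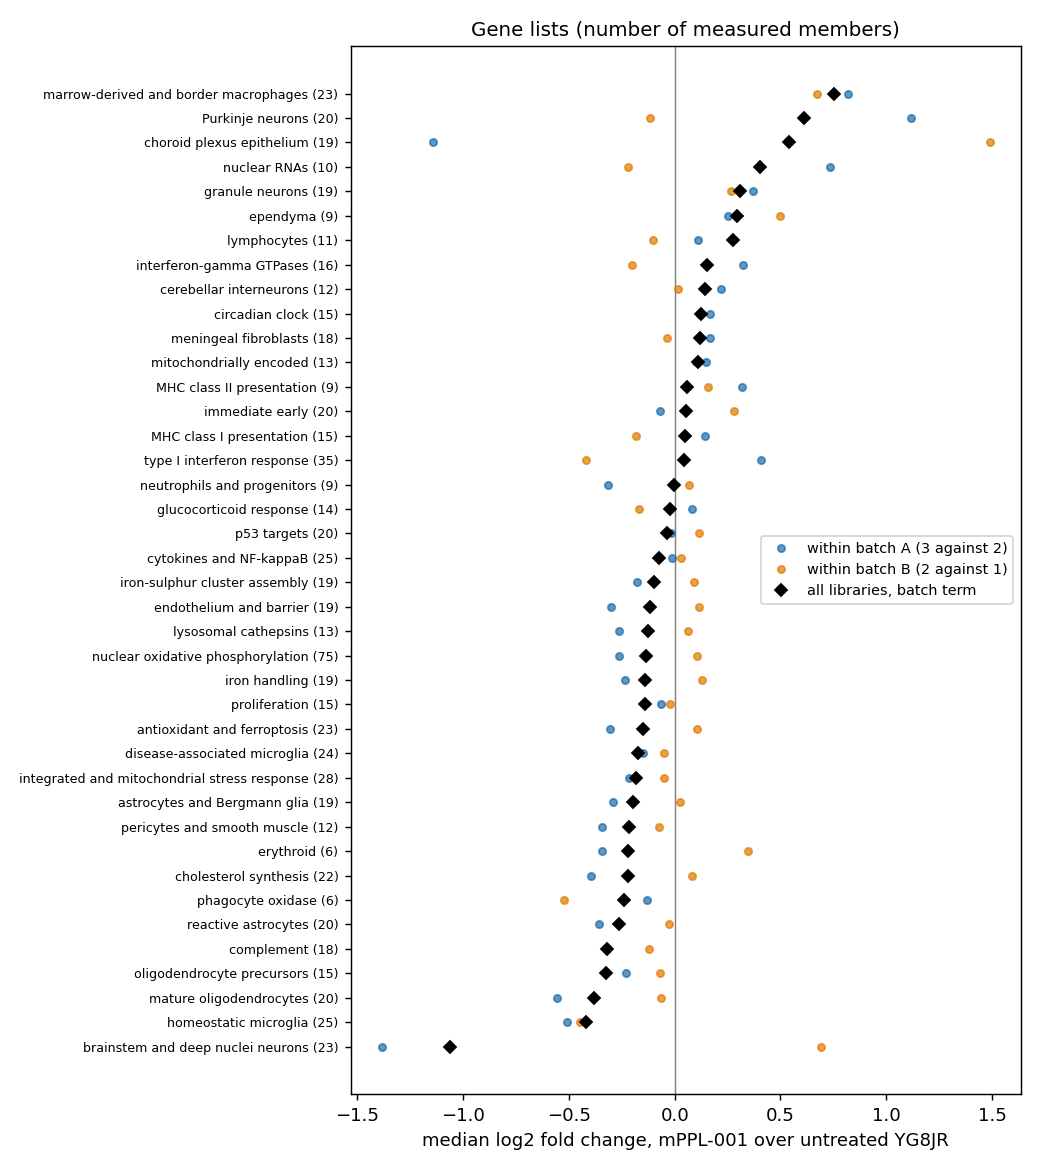
Median log2 fold change of mPPL-001 over untreated YG8JR for 40 gene lists (the satellite-like and Y-linked lists are not drawn), with diamonds for the fit of all libraries and circles for the values within batch A and within batch B. Of the lists drawn, the macrophage list stands highest and the brainstem list lowest. Many medians have opposite signs in the 2 batches, among them those of the brainstem, choroid plexus, Purkinje, type I interferon and cholesterol synthesis lists.

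Glial lists were mostly negative, with values that differed between the batches. All 20 genes of mature oligodendrocytes were negative, with a median log2 fold change of -0.38, but it was -0.56 within batch A and -0.07 within batch B. Mbp, a main myelin protein, had 5307, 2674, 3286, 3577 and 2816 CPM in mPPL-001 replicates 1 to 5, against 2816, 6043 and 5549 CPM in untreated replicates 1 to 3. Only the untreated libraries of batch A lay above the mPPL-001 range. The myelin genes Ermn (-0.57) and Ugt8a (-0.51) had an unadjusted p below 0.05. Of the 20 reactive astrocyte genes 18 were negative, with a median of -0.26 (-0.36 within batch A and -0.03 within batch B). Gfap, the intermediate filament of reactive astrocytes, had 509, 589, 526, 319 and 513 CPM in mPPL-001 replicates 1 to 5 and 614, 585, 444 and 598 CPM in mock replicates 1 to 4, against 618, 666 and 1201 CPM in untreated replicates 1 to 3. Every mPPL-001 library lay below every untreated one, though replicate 2 was within 30 CPM of untreated replicate 1, and the log2 fold change was -0.69 (SE 0.37, edgeR adjusted p = 0.94).

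Among the genes with the lowest fold changes were neuronal and pituitary genes that were highest in 1 or both of the untreated libraries of batch A. Htr5b, a serotonin receptor, had 0.0817, 0.117, 0.825, 0.575 and 0.279 CPM in mPPL-001 replicates 1 to 5, against 0.477, 12.9 and 37.1 CPM in untreated replicates 1 to 3. Ano2, a calcium-gated chloride channel of inferior olive neurons, had 0.123, 0.410, 0.383, 0.271 and 0.718 CPM in mPPL-001 replicates 1 to 5, against 0.358, 11.6 and 27.8 CPM in untreated replicates 1 to 3. In both genes untreated replicate 1 lay within the mPPL-001 range and the other untreated libraries far above it. The log2 fold changes were -4.97 for Htr5b (edgeR adjusted p = 0.0578) and -4.70 for Ano2 (edgeR adjusted p = 0.266). Within batch B they were -1.28 and 0.64. Without untreated replicate 1 both passed, at edgeR adjusted p values of 0.00111 and 0.00105.

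The pituitary hormone genes were also highest in untreated replicate 3. Gh, growth hormone, had 0.449, 0.146, 0.0589, 0.237 and 0.0399 CPM in mPPL-001 replicates 1 to 5 and 0.976, 7.87, 5.60 and 0.894 CPM in mock replicates 1 to 4, against 0.239, 8.34 and 41.7 CPM in untreated replicates 1 to 3. Prl, prolactin, had 158 CPM in untreated replicate 3 and no more than 0.898 CPM in the other 2 untreated libraries, and it was at 0 in 4 of 5 mPPL-001 libraries. Both are chiefly hormones of the pituitary gland. The neuropeptide genes Crh (-2.57) and Trh (-3.23) and the secreted factor gene Ndnf (-1.12), given as log2 fold changes, were likewise highest in untreated replicates 2 and 3. Hmx3 (-3.64), a homeobox gene, had no more than 0.177 CPM in any mPPL-001 library, against 0.985 and 2.37 CPM in untreated replicates 2 and 3 and 0 in untreated replicate 1. Adra1d (-1.61), an adrenergic receptor gene, and Etv5 (-0.48), an ETS transcription factor gene, differed without overlap between the groups. Within batch A they had -2.31 and -0.63, but within batch B only -0.18 and -0.14. The brainstem list as a whole had 17 of 23 negative, with a median of -1.06, and it was -1.39 within batch A and 0.69 within batch B. A score of cerebellar over brainstem genes, on a log2 scale, was 0.30, 8.41, 4.39, 1.74 and 6.76 in mPPL-001 replicates 1 to 5, against 8.22, 0.44 and -1.04 in untreated replicates 1 to 3. With that score in the fit, 6 genes were called and all of them were higher. The log2 fold changes were then -4.55 for Htr5b, -3.80 for Ano2 and -4.52 for Gh. None of these passed with the score, and none had passed in the fit of all libraries without it. Htr5b and Ano2 belong to the brainstem list from which the score is made, so their values with it are partly adjusted for themselves.

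**Figure D4:**
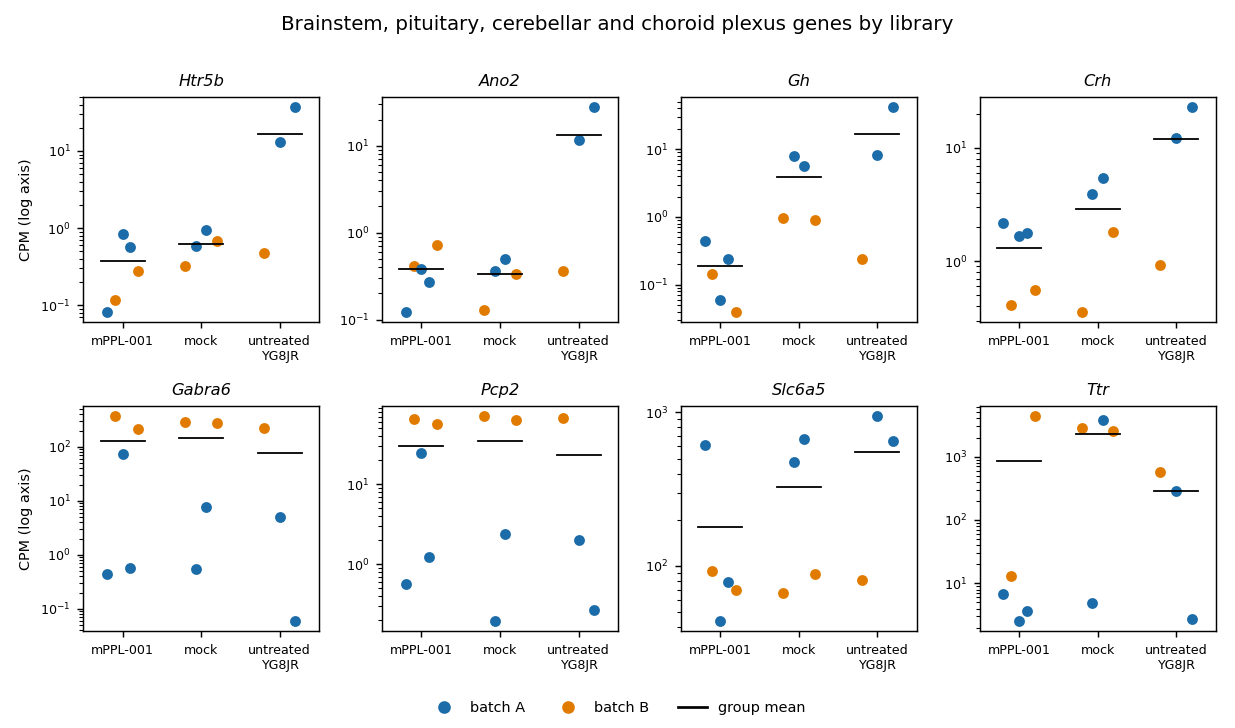
CPM on a log axis for 4 genes lower in mPPL-001 (top) and 4 genes of granule neurons, Purkinje cells, brainstem and deep nuclei neurons and choroid plexus (bottom), with a point for each mPPL-001, mock and untreated YG8JR library coloured by labelled batch, and a line at each group mean. Untreated replicates 2 and 3, the batch A points, stand highest in the top row, and in Gabra6 and Pcp2 the batch A libraries lie lower than the batch B ones, with mPPL-001 replicate 3 the highest of batch A.

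Cerebellar neuron genes followed the same split. The Purkinje list had 19 of 20 positive, with a median log2 fold change of 0.61, and it was 1.12 within batch A, -0.12 within batch B and -0.27 without mPPL-001 replicate 3. Pcp2, a Purkinje cell protein, had 0.572, 65.1, 24.7, 1.22 and 57.4 CPM in mPPL-001 replicates 1 to 5, against 66.6, 2.03 and 0.267 CPM in untreated replicates 1 to 3. Stac, an adaptor protein gene of the same list, had -1.15 and Barhl1, a granule neuron factor, had 1.45 as log2 fold change, neither passing. Choroid plexus transcripts were abundant in some libraries and scarce in others. Ttr, the transthyretin of choroid plexus, had 6.74, 12.96, 2.53, 3.69 and 4313 CPM in mPPL-001 replicates 1 to 5, against 576, 290 and 2.72 CPM in untreated replicates 1 to 3. Its log2 fold change was 0.55 (SE 2.92) with mPPL-001 replicate 5 and -5.35 without it. The choroid plexus list had a median of 0.54, with -1.15 within batch A and 1.49 within batch B.

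Among other genes with small p values and higher levels, most were high in a subset of mPPL-001 libraries. Bc1, a brain cytoplasmic noncoding RNA, had 145, 28.5, 100, 132 and 38.2 CPM in mPPL-001 replicates 1 to 5, against 32.1, 29.0 and 26.6 CPM in untreated replicates 1 to 3. Its 3 high libraries were the batch A ones, and the log2 fold change was 1.37 (SE 0.42, edgeR adjusted p = 0.94), with 2.21 within batch A and 0.06 within batch B. Svet1 (1.39) and Sgcd (0.80), a sarcoglycan gene, were also highest in replicates 1, 3 and 4, and mPPL-001 replicates 2 and 5 of each lay within the untreated range. Emx2 (5.27), a forebrain homeobox gene, had 2.36 and 3.45 CPM in mPPL-001 replicates 3 and 4 and was at 0 in replicate 1. Tcf7l2 (2.42), a Wnt pathway factor that is abundant in thalamus and midbrain, had 165, 179 and 143 CPM in mPPL-001 replicates 3 to 5, and 16.2 and 22.2 CPM in replicates 1 and 2, against 13.8 to 23.3 CPM in untreated libraries. Spx (1.10), the spexin gene, had 2.66, 3.07, 3.48, 3.22 and 2.15 CPM in mPPL-001 replicates 1 to 5, against 1.67, 0.898 and 1.54 CPM in untreated replicates 1 to 3. Mid1 (0.77), a ubiquitin ligase gene, had 6.41 to 8.26 CPM in mPPL-001 libraries, against 5.49, 3.07 and 3.85 CPM in untreated replicates 1 to 3. Neither overlapped between the groups, and values in parentheses in this paragraph are log2 fold changes.

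Mitochondrial and iron genes, which the disease touches most directly, gave no call. Mitochondrially encoded genes made 5.59% of counts in mPPL-001 replicate 1, the library with the lowest total, and 2.88% to 3.09% in the other mPPL-001 libraries, against 3.02% to 3.45% in untreated libraries. The 13 mitochondrially encoded genes were all positive, with a median log2 fold change of 0.11 (-0.012 without mPPL-001 replicate 1), and mt-Atp6 had 74.3, 46.8, 39.8, 54.6 and 81.1 CPM in mPPL-001 replicates 1 to 5, against 51.3, 58.0 and 36.7 CPM in untreated replicates 1 to 3. The 75 nuclear genes of oxidative phosphorylation had a median of -0.14, with 71 negative, and it was -0.26 within batch A and 0.10 within batch B. None had an unadjusted p below 0.05. Iron-sulphur cluster assembly genes had a median of -0.10 (0.09 within batch B), with the desulphurase gene Nfs1 at -0.20 (SE 0.11) and the scaffold gene Iscu at -0.34 (SE 0.25). All 19 measured iron handling genes were negative, with a median of -0.14 and 0.13 within batch B. Trf, transferrin, had 887, 488, 602, 589 and 716 CPM in mPPL-001 replicates 1 to 5, against 682, 1334 and 854 CPM in untreated replicates 1 to 3, with overlapping groups.

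Stress response genes mostly had negative values, and none passed. Of 28 measured genes of the integrated and mitochondrial stress responses 23 were negative, with a median log2 fold change of -0.19 (-0.21 within batch A and -0.05 within batch B), and in 4 of them (against 1.03% of all genes) every mPPL-001 library lay below every untreated one. At an unadjusted p below 0.05, 3 of the 28 (10.7%) were lower, against 1.81% of all genes. The list was chosen with earlier results known. Mthfd2, a mitochondrial folate enzyme, had 22.6, 15.4, 16.6, 15.4 and 15.8 CPM in mPPL-001 replicates 1 to 5, against 22.8, 29.6 and 23.2 CPM in untreated replicates 1 to 3. Atf5, a factor of the mitochondrial unfolded protein response, had 30.7, 30.8, 30.1, 22.6 and 33.5 CPM in mPPL-001 replicates 1 to 5, against 40.4, 44.9 and 42.9 CPM in untreated replicates 1 to 3. Both genes were lower in every mPPL-001 library, with mPPL-001 replicate 1 next to untreated replicate 1 in Mthfd2. Their log2 fold changes were -0.54 for Mthfd2 (SE 0.19) and -0.53 for Atf5 (SE 0.22), both with an edgeR adjusted p of 0.94. Nupr1, a stress-induced chromatin protein, had -0.44 and Chac1, which breaks down glutathione, -0.50.

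The remaining lists gave no call. Of 20 p53 targets 12 were negative, with a median log2 fold change of -0.04. Eda2r, a death-receptor family gene, had 2.57, 2.96, 2.00, 2.88 and 2.11 CPM in mPPL-001 replicates 1 to 5 and 2.18, 2.57, 4.80 and 4.75 CPM in mock replicates 1 to 4, against 1.13, 1.25 and 2.07 CPM in untreated replicates 1 to 3. Cdkn1a, which arrests the cell cycle, had 26.5, 88.6, 70.9, 22.2 and 53.1 CPM in mPPL-001 replicates 1 to 5, against 80.7, 19.8 and 54.4 CPM in untreated replicates 1 to 3, with overlapping groups. The clock genes Per3 (0.60) and Per2 (0.48) and the activity-induced factor gene Egr4 (0.99) were higher and Arc (-0.39) was lower at an unadjusted p below 0.05. The cholesterol synthesis list had 21 of 22 negative, with a median of -0.22 (-0.40 within batch A and 0.08 within batch B). The 10 nuclear RNAs were all positive, with a median of 0.40, but it was -0.22 within batch B, and Meg3 had 3470 and 2317 CPM in mPPL-001 replicates 1 and 4.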

How the data were processed

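Total RNA from flash-frozen cerebellum was ribodepleted and made into paired-end libraries with a stranded kit, per the labels' protocols. The authors deposited raw read counts per gene, and the submitters' processing notes name STAR and GRCm39. The counting tool is not given in the sources used here. The table held 55487 mouse genes, of which 99.4% matched a symbol. Libraries were grouped by title.

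Counts were normalised by TMM in edgeR 4.0.16 (R 4.3.3), and CPM values use these library sizes. Genes were kept by a minimum count of 10 (minimum total 15), which left 24989. A quasi-likelihood model with group and labelled batch was fitted to all 15 libraries (10 residual degrees of freedom), with Benjamini-Hochberg adjustment over all genes tested. SE is the log2 fold change divided by the square root of F. No library repeated another of its group, where the smallest chi-square per gene was 23.4. The code was tested on simulated data.

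Alternatives were no filter, a stricter filter (1 CPM in 5 libraries), RLE scaling, DESeq2 1.42.0, limma 3.58.1 voom with sample weights, no batch term, fewer libraries, single batches, the replicate number as a block, covariates (Y-linked level, region score, choroid plexus score) and leaving out each library. Named genes were up to 12 per direction with the smallest p, at least 1 CPM and a proper name, the satellite-like genes, and list members with the smallest p. The genes, the 42 lists and the comparison itself were chosen with earlier results of these data known. Results for some genes, the edited gene among them, are not reported here.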

Additional observations from a re-analysis of the deposited data

Results flagged for a closer look

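In 16 of 145 values looked at, 1 of the 5 mPPL-001 libraries lay far from the other 4. Chance alone flags about 1 in 20 such groups, and none of these values was weighed further.

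Replicate 5 held more choroid plexus transcripts than the others. Ttr was at 4313 CPM there, against 2.53 to 12.96 CPM in the other mPPL-001 libraries, Kcnj13 at 13.9 CPM, and the choroid plexus list at a mean log2 CPM of 5.82, against 0.676 to 1.20. Replicate 5 also had the highest Cd74 (15.8 CPM), Ifi207 (3.27 CPM) and Ccl2 (0.239 CPM). Replicate 1 had 616 CPM of the glycine transporter gene Slc6a5, against 43.7 to 93.0 CPM in the others, and the highest Gm10715 (3.84 CPM), Spp1 (94.2 CPM), Ccl5 (1.14 CPM), Fth1 (1253 CPM) and Mthfd2 (22.6 CPM). Prl was at 0.0817 CPM in replicate 1 and at 0 in the other 4. Replicate 3 had the highest Gpr34 (7.01 CPM) and Emcn (6.19 CPM), and replicate 4 the lowest Chac1 (7.18 CPM).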

How the results depend on the processing

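The count of genes higher in mPPL-001 than in untreated YG8JR was 8, and it ran from 6 to 8 when each library was left out in turn. It was 16 with DESeq2, 13 with voom, 5 without the batch term and 0 within batch B, where 1 untreated library was left. The count of lower genes was 0, and it was 6 with DESeq2, 21 with voom, 5 within batch A and 0 to 3 when each library was left out (1 without mPPL-001 replicate 1, and 3 without untreated replicate 1). The called higher genes beyond the satellite-like family were Ms4a7, Cybb, Siglec1 and Samd3 with DESeq2, Ms4a7, Cybb and Lyz2 with voom, and Bc1 within batch A. The genes called lower with DESeq2 included Htr5b, Ano2, Hmx3 and Prl besides the microglial gene Cx3cr1. Voom also called Cx3cr1 lower, among 21 genes that included Crh, Hmx3, Hoxb3 and Hoxd3. Against mock, 0 genes were called except within single batches, with 0 higher and 1 lower in batch A and 4 higher and 1 lower in batch B. Gm10801, Gm10718, Gm21738, Gm10717 and Gm17535 were called in 22 of 23 alternatives and missed within batch B alone, Gm10800 in 21, Gm10715 in 10 and Gm11168 in 8. All of these stayed positive.

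The deviations of same-numbered libraries had r of 0.319, 0.278 and -0.099, positive for replicates 1 and 2 alone, and the labels give the numbers no meaning, so they were not treated as pairs. With the replicate number as a block, 6 genes were higher and 0 lower, and Ttr had a log2 fold change of -5.56.

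Of 104 named genes, those whose log2 fold change turned its sign in some alternative had not passed edgeR's test with all libraries, and of these Ano2 was called with DESeq2, within batch A and without untreated replicate 1. Within batch A the values were 0.17 for Pf4, 0.21 for Ccr2, -0.091 for Lyve1, -0.013 for Apoe, 0.053 for Cd68 and -5.05 for Ttr. Within batch B they were 0.10 for Gm10714, 0.64 for Ano2, 0.61 for Gpnmb, -0.019 for H2-K1, 0.21 for C3ar1, -0.11 for Pcp2, 0.32 for Trh, 0.017 for Slc6a5, 0.13 for Fth1, -0.18 for Cdkn1a, -0.015 for Per3 and -0.27 for Meg3. Ttr was also -1.17 with voom, -3.85 in the 8 libraries alone, -1.46 in the 12 YG8JR libraries, -1.50 without the library labelled WT replicate 3, -4.61 with the Y-linked level, -0.72 with the region score and -1.21 with the choroid plexus score. Cd68 was 0.028 with the stricter filter, 0 with RLE and with DESeq2, 0.073 with voom, 0.009 without the batch term, 0.04 in the 12 YG8JR libraries, 0.031 without the library labelled WT replicate 3 and 0.04 with the choroid plexus score. Cdkn1a was -0.014 without a filter, -0.26 with voom, -0.065 with the Y-linked level and -0.092 with the region score. C4b was 0.041 with the region score, and Apoe -0.023 and H2-K1 -0.001 with the Y-linked level. Over the leave-one-out fits the ranges were -0.22 to 0.036 for C4b, -0.93 to 0.24 for Ccr2, -0.14 to 0.16 for Cd68, -0.33 to 0.33 for Cdkn1a, -0.30 to 2.95 for Gabra6, -0.13 to 2.58 for Pcp2, -0.55 to 0.25 for Pf4 and -5.35 to 1.52 for Ttr. For values other than those of the smaller fits, the cause was not tested.

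No gene was called for a difference of the mPPL-001 effect between batches, in edgeR's interaction test (0 of 24989, with 1461 at an unadjusted p below 0.05). Of the 8 libraries, 3 are of batch B and 1 of these is untreated, so values within batch B rest on that library. Genes near the low-count limit, such as Gm10715 and Prl, are the least precise.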
